A study of Mus musculus with 4 samples.

Results

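The cytosolic ribosomal protein genes were followed in 3 RNA sequencing libraries of cultured mouse red cell precursors. Members were the rows of the deposited table whose gene symbol is Rps or Rpl with a number (and at most a closing a, x, y or l and a digit), or is Rpsa, Rplp0, Rplp1 or Rplp2. Pseudogenes named with -ps and the S6 kinases were left out. This rule found 85 of 23234 rows, 34 for the small subunit and 51 for the large subunit. Of these, 81 were measured, which here means at least 1 FPKM (a read density: fragments per length of transcript and per library total) in 1 of the libraries, as were 9611 of all rows. All 34 small-subunit rows and 47 of the 51 large-subunit rows were measured. Of the members, 2 rows name several genes, one for Rps27 with the predicted gene Gm9846 and one for Rpl34 with its pseudogene Rpl34-ps1, and Rps27 also has a row of its own at the same locus.

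The cells were ESREs (extensively self-renewing erythroblasts), immature erythroblasts that divide in culture for long periods and can be moved on to terminal maturation. The proliferating control carried a non-targeting short hairpin RNA. The proliferating knockdown carried a hairpin against Setd8, which encodes a histone H4 methyltransferase. The maturing control carried the non-targeting hairpin and spent the last 6 h before RNA collection in maturation medium. A Setd8 hairpin group at 6 h of maturation is also described in the labels and was not analysed here. Each group is 1 sample, every group carries a hairpin, and the labels do not say how many cultures, fetuses or hairpin clones a sample holds. There is therefore no replicate check of any difference below, and no test was made beyond the one in the authors' deposited table.

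The small subunit of the ribosome reads the messenger RNA and the large subunit joins the amino acids, and each is built from ribosomal RNA and one copy of most of these proteins. In growing cells the proteins are made in matched amounts, and many of their messenger RNAs begin with a C followed by a run of pyrimidines, the 5′ TOP (terminal oligopyrimidine) motif, through which their translation follows nutrient and mTOR signalling. Erythroid cells are known for their sensitivity to ribosomal protein loss, since mutations in many of these genes cause the red cell failure of Diamond-Blackfan anaemia.

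Setd8 stood at 25.1 FPKM in the proliferating control, 9.28 in the knockdown and 25.9 in the maturing control. Judged by what 1 fragment is worth in the lowest rows, the knockdown library was 1.44 times and the maturing control library 1.55 times as deep as the proliferating control. The summed level of 11 erythroblast markers was 1874, 729 and 3026 FPKM in the order proliferating control, knockdown and maturing control, with 10, 9 and 11 of the 11 at 1 FPKM or more and none at 0. Globin rows gave most of this sum, at 843, 265 and 1747 FPKM for Hba-a1 with Hba-a2 and 798, 280 and 963 FPKM for Hbb-b1 with Hbb-b2. Gata1 (52.8 and 61.1 FPKM) and Tal1 (40.3 and 49.0 FPKM) were higher in the knockdown than in the proliferating control. The other erythroblast markers were lower there. The summed level of 8 mast cell markers was 54.2, 449.8 and 33.7 FPKM, with 4, 7 and 3 of the 8 at 1 FPKM or more. Hdc gave most of this sum, at 42.5, 277 and 28.7 FPKM, and Fcer1a was below 1 FPKM in every library. The 6 markers of granulocytes and monocytes summed to at most 1.48 FPKM in a library, with Elane and Lyz2 at 0 in all 3. The 6 megakaryocyte markers summed to 14.6, 23.6 and 8.73 FPKM and the 4 lymphocyte markers to 2.31, 0.185 and 1.54 FPKM. The part of these marker shifts in the ribosomal protein values was not tested, and fewer cells of a type and less RNA per cell cannot be told apart in such bulk samples.

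Ribosomal protein messages were among the most abundant in all 3 libraries. In the proliferating control, the measured members had a median of 282 FPKM, with the middle 50% between 169 and 425.5 FPKM. The knockdown had a median of 261 FPKM and the maturing control one of 257 FPKM. Of the 81 measured members, 72 stood at 100 FPKM or more in every library. Members filled 42 of the 100 highest rows in the proliferating control, 42 in the knockdown and 41 in the maturing control. Together they held 14.7% of the summed FPKM in the proliferating control, 14.1% in the knockdown and 13.5% in the maturing control. FPKM is per length, which lets levels be set beside each other between genes. This holds less well for rows whose reads may be split with near-identical copies, described below. Small-subunit rows had a median of 327 FPKM in the proliferating control and large-subunit rows 258 FPKM.

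**Figure D1:**
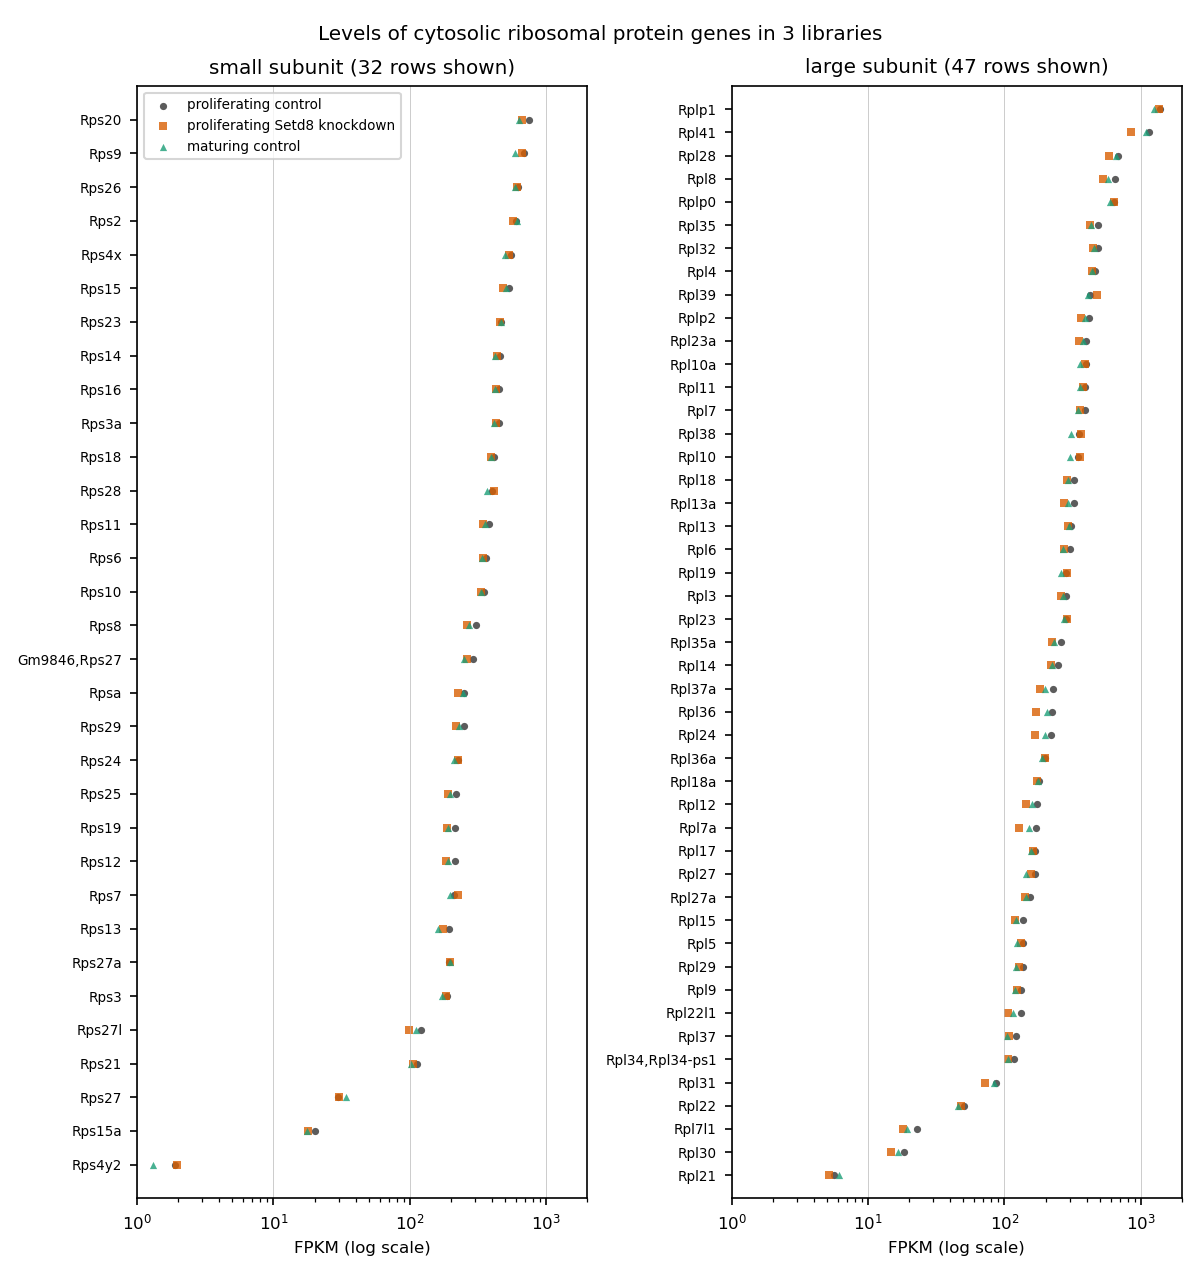
FPKM of 79 of the 81 measured ribosomal protein rows (horizontal log axis) in the proliferating control (circles), the proliferating Setd8 knockdown (squares) and the maturing control (triangles), 1 library each, sorted by the control level within each subunit. The 3 symbols of a row lie close together compared with the spread between rows, and a few rows, from Rpl21 to Rpl31 and from Rps4y2 to Rps27, lie below 100 FPKM.

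The highest row was Rplp1, an acidic protein of the stalk that recruits elongation factors (chr9:61761089-61762317, mm9). It stood at 1391 FPKM in the proliferating control, 1354 in the knockdown and 1237 in the maturing control. Rpl41, which encodes the shortest protein of the ribosome (chr10:127985165-127986224, mm9), followed at 1154 FPKM in the proliferating control, 852 in the knockdown and 1098 in the maturing control. The knockdown library was the lowest of the 3 for Rpl41, while for Rplp1 it lay between the others. Rps20, a small-subunit head protein, stood at 742 FPKM in the proliferating control, 662 in the knockdown and 629.6 in the maturing control. Rpl28 stood at 684 FPKM in the proliferating control, 586 in the knockdown and 652 in the maturing control. Rps9, a protein of the small-subunit body near the mRNA entry, stood at 682 FPKM in the proliferating control, 664 in the knockdown and 593 in the maturing control. All 3 of these were highest in the proliferating control.

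At the other end, 4 rows were below 1 FPKM in every library. Rpl26, a protein beside the exit of the nascent chain, was listed at 0 in the proliferating control and in the knockdown and at 0.595 FPKM in the maturing control. The others are the tissue-restricted paralogs Rpl3l, the form found in muscle, and Rpl10l and Rpl39l, forms found in testis. Rpl3l stood at 0.0288, 0.0742 and 0.0371 FPKM in the order proliferating control, knockdown and maturing control. Rpl10l stood at 0.0600, 0.0207 and 0.0289 FPKM in the same order. Rpl39l was listed at 0 in the proliferating control, with 0.0585 FPKM in the knockdown and 0.0685 in the maturing control. The lowest measured members were Rps4y2, a relative of Rps4x, at 1.89, 1.97 and 1.30 FPKM, and Rpl21 at 5.67, 5.21 and 6.09 FPKM, again in that order.

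Some low rows of broadly used ribosomal proteins have near-identical pseudogene copies with rows of their own. A copy was counted where a pseudogene transcript matched at least 80% of the coding sequence at 95% identity or more. Of 84 members with a coding sequence to search, 77 had at least 1 copy, with a median of 4.5 copies and a highest number of 56, for Rpl21. Among the 7 with none were Rpl8, Rplp2 and Rps3 and the paralogs Rpl3l, Rpl39l and Rps27l. Most copies have no row in the deposited table, but 10 copies of 9 members do, and these 10 rows summed to 4422 FPKM in the proliferating control, 4023 in the knockdown and 4007 in the maturing control. Reads from a gene and from such a copy are hard to tell apart, so the split between the rows is uncertain.

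The clearest case was Rpl26. Its copy Gm15772, identical over 99.5% of the matched bases, stood at 601 FPKM in the proliferating control, 561 in the knockdown and 568 in the maturing control, a level near those of the highest ribosomal protein rows, against at most 0.595 FPKM for Rpl26 in any library. Rps15a, a small-subunit protein, was at 20.3, 18.0 and 17.6 FPKM in the order proliferating control, knockdown and maturing control. Its copies Gm11968 and Gm13253, at 98.7% and 97.7% identity, were at 413, 372 and 369.7 FPKM and at 486, 439 and 435 FPKM. Rpl30, a large-subunit protein, was at 18.5, 14.8 and 16.6 FPKM. Its copy Gm12191, at 99.7% identity, was at 174, 159.6 and 159 FPKM. In each of these 3 cases the row of the gene was far below its copy in every library.

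For other pairs both rows were high. Rps19, the gene most often mutated in Diamond-Blackfan anaemia, was at 214 FPKM in the proliferating control, 188 in the knockdown and 190.0 in the maturing control. The row of its copy Rps19-ps3, at 95.4% identity, was at 1211 FPKM in the proliferating control, 1057 in the knockdown and 1062 in the maturing control. Rpl32 was at 483, 445 and 453 FPKM and its copy Gm6251, at 96.0% identity, at 829, 760.5 and 769 FPKM, in the same order of libraries. Rps26 was at 624, 608 and 585 FPKM and its copy Gm6654, at 97.4% identity, at 519, 509 and 484 FPKM. Rpl22l1 was at 132, 106 and 115 FPKM and its copy Gm15421, at 99.5% identity, at 127, 103 and 112 FPKM. In contrast, the copy of Rpl29, Gm8580, stood at 22.2, 19.0 and 19.1 FPKM against 136, 127 and 121 FPKM for the gene. In the knockdown, 9 of the 10 copy rows had a lower value than in the proliferating control, as had all 10 in the maturing control, and 0 were called in the authors' deposited table in either comparison.

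**Figure D2:**
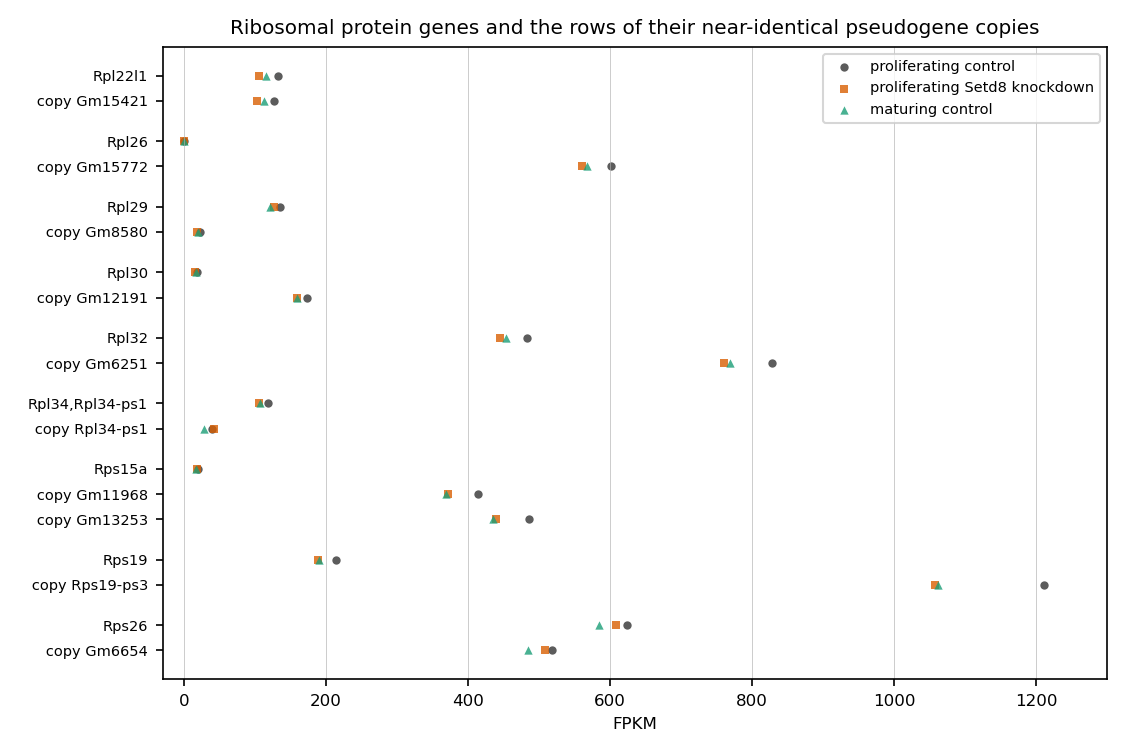
FPKM (horizontal linear axis) of the 9 ribosomal protein rows that have a near-identical pseudogene copy with its own row, each above its copy or copies, in the proliferating control (circles), the knockdown (squares) and the maturing control (triangles), 1 library each. The rows of Rpl26, Rpl30 and Rps15a sit near 0 while their copies lie between 159 and 601 FPKM.

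Start sites were read from RefSeq promoter windows (GRCm38.p6, 250 bases before to 50 after the annotated start), which matched 64 member rows of 63 genes. The table's own coordinates are on mm9, so the windows were joined by symbol. A strict start motif, a C at the first base followed by at least 4 pyrimidines (C or T), was found at the first annotated base of 12 of 63 member genes (19.0%), against 673 of 27025 genes in all (2.49%) and 0 of 69 mitochondrial ribosomal protein genes. With the start allowed to shift by up to 5 bases either way, 28 of 63 members (44.4%) held it, against 18.5% of all genes and 21.7% of mitochondrial ribosomal protein genes. The windows below run from 10 bases before the annotated start to 20 bases from it. The 5 longest runs that begin with a C at the annotated first base are shown first, with the run in capitals. They are followed by the 2 members with the lowest and the 2 with the highest knockdown ratio among those at 5 FPKM or more, which hold no such run from the first base, or too short a one.
Rpl15 (chr14:18270967-18270996, reverse strand): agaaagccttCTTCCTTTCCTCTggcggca
Rpl35 (chr2:39005112-39005141, reverse strand): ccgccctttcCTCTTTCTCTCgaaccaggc
Rps10 (chr17:27635225-27635254, reverse strand): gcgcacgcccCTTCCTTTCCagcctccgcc
Rps18 (chr17:33955646-33955675, reverse strand): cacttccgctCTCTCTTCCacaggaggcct
Rps6 (chr4:86857348-86857377, reverse strand): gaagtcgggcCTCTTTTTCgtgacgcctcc
Rpl41 (chr10:128549149-128549178, reverse strand): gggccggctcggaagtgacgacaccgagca
Rpl7a (chr2:26910797-26910826, forward strand): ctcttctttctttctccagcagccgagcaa
Rps7 (chr12:28635934-28635963, reverse strand): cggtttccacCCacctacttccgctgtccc
Rpl39 (chrX:37085203-37085232, reverse strand): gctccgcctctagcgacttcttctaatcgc
In the Rpl7a window pyrimidines lie on both sides of the annotated start, whose first base is not a C. The absence of a run says only that these letters are not at this annotated base. Over the full 300 bases and on both strands, CCGGAAG, a form of the site of the ETS factor GABPA, was in 25 of 63 member windows (39.7%), in 36.2% of mitochondrial ribosomal protein windows and in 9.12% of all windows. GGGCGG, the core of the SP1 site, was in 38 of 63 (60.3%), in 49.3% of mitochondrial ribosomal protein windows and in 35.9% of all windows. AGATGGC, a form of the YY1 site, was in 7 of 63 (11.1%), in 17.4% of mitochondrial ribosomal protein windows and in 6.45% of all windows. These matches describe letters in a window and not binding.

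Ratios between libraries were then set side by side for members with and without the strict motif. The 13 measured rows with it had a median log2 ratio in the knockdown of -0.14, with 11 lower, and the 47 measured rows of members with a window but without it had a median of -0.089, with 39 lower. In the maturing control the medians were -0.14, with 12 of 13 lower, and -0.13, with 46 of 47 lower. These log2 ratios, and all others below unless said otherwise, are of FPKM + 1 against the proliferating control, which understates the change of low genes.

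The first comparison asked how the Setd8 hairpin altered expression in proliferating cells. Ribosomal protein messages mostly had slightly lower values in the knockdown library, and none was called different. The median of the 81 measured members was 91.9% of the control level, a log2 ratio of -0.12, with the middle 50% between -0.20 and -0.044. A lower value was found for 69 of 81 members, against 55.6% of all measured genes, whose median was -0.045. After centring on the genes at 5 FPKM or more in every library, 48 of 81 members had a lower value, against 44.5% of all measured genes on that scale. With an equal sum of FPKM it was 59 of 81, against 50.3%. A difference of 1.5-fold or more was reached by 0 members, against 15.4% of all measured genes. Of the 80 tested members, 0 were called in the authors' deposited table at a q of at most 0.05, against 9.05% of 11665 tested genes.

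At an unadjusted p under 0.05, again in the authors' deposited table (Cuffdiff), the count was 0 of 80 members against 14.7% of all tested genes. The lowest unadjusted p of a tested member was 0.241, for Rpl41, with a q of 0.950. The table's model gave the members a median standard error of 0.38 on the log2 scale, and 78 of 80 members lay within 1 standard error of no difference. With that error, a member would need a log2 ratio of about 0.75 in size, a fold of 1.68, to reach an unadjusted p of 0.05. Differences of the size seen here were thus below what a single pair of libraries could show under that model, and the values do not show that the members were equal.

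**Figure D3:**
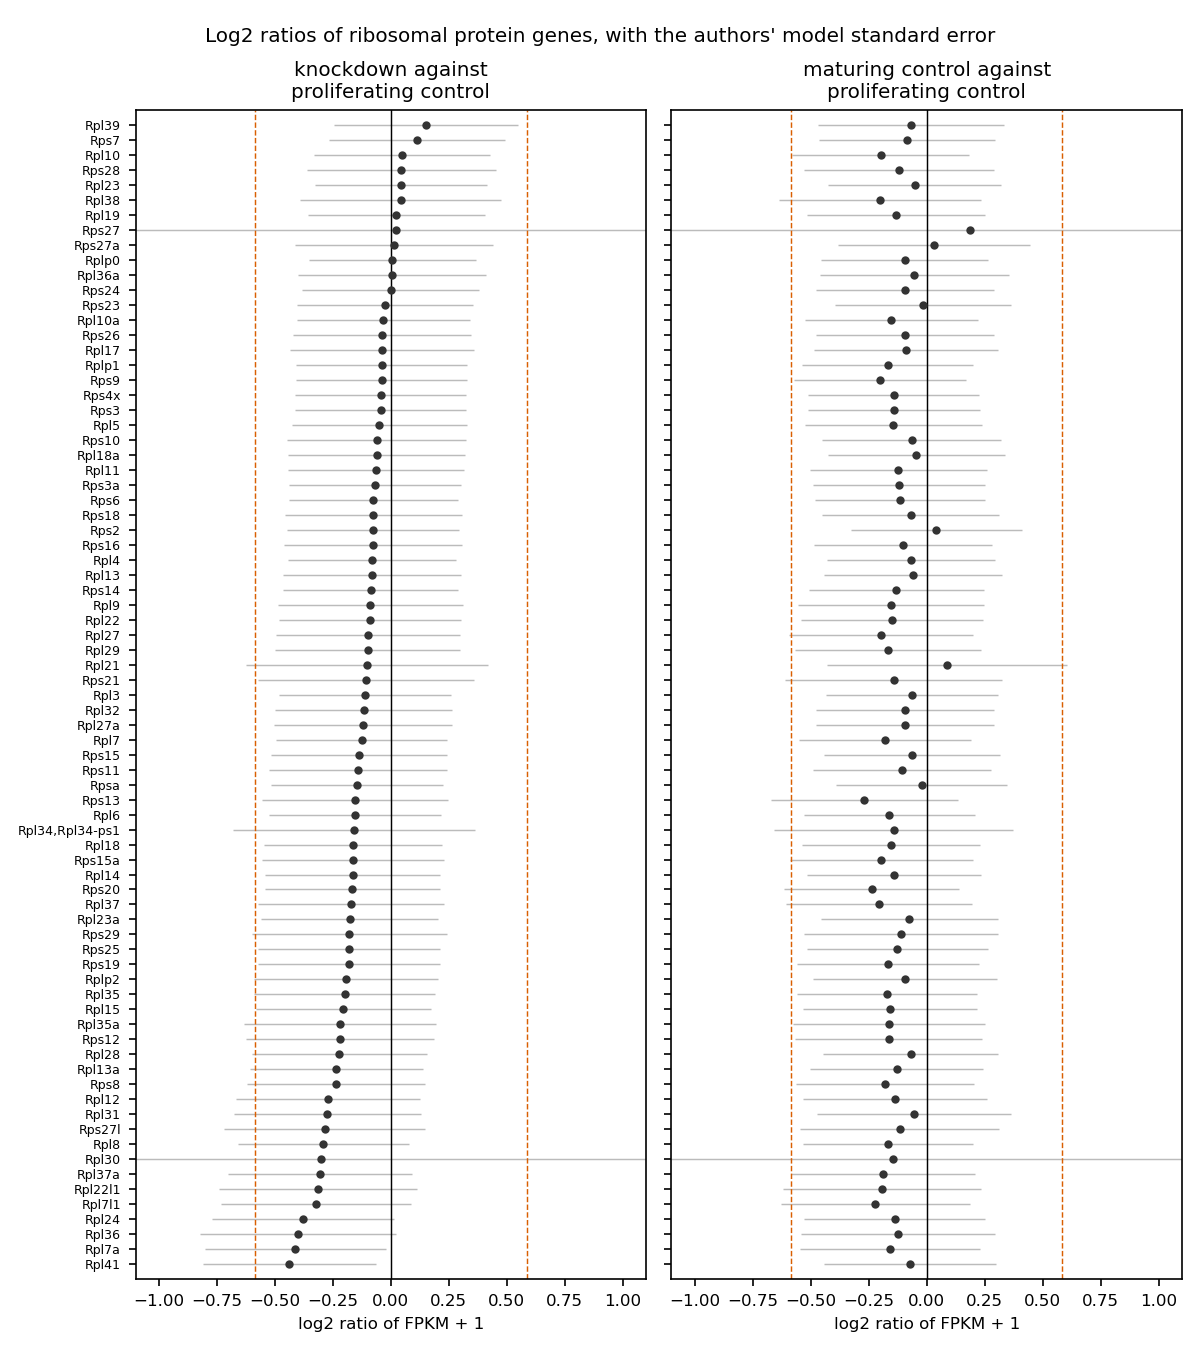
Log2 ratios of FPKM + 1 (points) of 77 ribosomal protein rows at 5 FPKM or more in a library and with a model error, for the knockdown (left) and the maturing control (right) against the proliferating control, sorted by the knockdown ratio. Grey bars are 1 standard error from the authors' model (those of Rps27 and Rpl30 run past the axis) and dashed lines mark 1.5-fold; no point reaches a dashed line, and the points of the maturing control are spread less widely than those of the knockdown.

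The lowest knockdown ratios belonged to large-subunit proteins. Rpl41 was at 1154 FPKM in the proliferating control and 852 in the knockdown, a log2 ratio of -0.44 with a model standard error of 0.37. Rpl7a, a large-subunit protein (chr2:26766326-26768831, mm9), was at 169 FPKM in the proliferating control and 127 in the knockdown, a ratio of -0.41 with a standard error of 0.39. These were the 2 members beyond 1 standard error. Rpl36 was at 224 FPKM in the proliferating control and 169 in the knockdown (-0.40), and Rpl24, a protein of a bridge to the small subunit, at 218 FPKM in the proliferating control and 168 in the knockdown (-0.38). The paralog Rpl7l1 was at 22.8 FPKM in the proliferating control and 18.1 in the knockdown (-0.32). All 5 had values in the maturing control between those of the proliferating libraries.

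The highest ratios were small. Rpl39, which lines the tunnel of the nascent chain (chrX:34622514-34625179, mm9), was at 426 FPKM in the proliferating control and 473 in the knockdown (0.15). Rps7, whose human counterpart is a Diamond-Blackfan gene, was at 209 FPKM in the proliferating control and 226 in the knockdown (0.11). Rpl10, which is fitted late in the maturation of the large subunit, was at 346 FPKM in the proliferating control and 358 in the knockdown (0.048). Rps28 was at 401 FPKM in the proliferating control and 414 in the knockdown (0.046) and Rpl23 at 281 FPKM in the proliferating control and 289 in the knockdown (0.043). Each of these 5 was within 1 standard error of no difference. The small-subunit rows had a median of -0.081 and the large-subunit rows one of -0.13, with 29 of 34 and 40 of 47 lower.

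The second comparison asked what 6 h of maturation altered in control cells. The members again had slightly lower values, closer to each other than in the knockdown. Their median was 91.2% of the control level, a log2 ratio of -0.13, with the middle 50% between -0.17 and -0.081. A lower value was found for 77 of 81 members, against 47.3% of all measured genes, whose median was 0.014. This count was 77 of 81 under each of the 4 other scalings tried. A difference of 1.5-fold or more was reached by 0 members, against 6.28% of all measured genes, and 0 of 81 tested members were called in the authors' deposited table, against 1.75% of 11298 tested genes. At an unadjusted p under 0.05 the authors' deposited table (Cuffdiff) held 0 tested members, against 4.90% of all tested genes, and all 80 measured members with an error lay within 1 standard error of no difference.

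Among members at 5 FPKM or more, the lowest maturation ratios were mostly of small-subunit proteins. Below that level Rps4y2, at 1.89 FPKM in the proliferating control and 1.30 in the maturing control, had a lower one (-0.33). Rps13 was at 194 FPKM in the proliferating control and 161 in the maturing control (-0.27) and Rps20 at 742 FPKM in the proliferating control and 629.6 in the maturing control (-0.24). Rpl7l1 was at 22.8 FPKM in the proliferating control and 19.4 in the maturing control (-0.22). The joint row of Gm9846 and Rps27 was at 288 FPKM in the proliferating control and 248 in the maturing control (-0.21), while the row of Rps27 alone, at 29.7 FPKM in the proliferating control and 33.9 in the maturing control, had the highest ratio (0.19). These 2 rows cover the same locus, so their opposite signs cannot be assigned to the gene. The joint row was not tested in the authors' deposited table (status LOWDATA), so it could not be called. The other members with a higher value were Rpl21 (0.088), Rps2 at 597 FPKM in the proliferating control and 614 in the maturing control (0.041) and Rps27a at 193 FPKM in the proliferating control and 198 in the maturing control (0.031). Rps23, part of the decoding centre, followed at 468 FPKM in the proliferating control and 463 in the maturing control (-0.016). Medians were -0.12 for the small subunit, with 31 of 34 lower, and -0.14 for the large subunit, with 46 of 47 lower.

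Both comparisons use the same proliferating control library, which was the highest of the 3 for 67 of the 81 measured members. The knockdown was the lowest for 41 and the maturing control for 38. The 67 members that were lower in both libraries therefore all rest on that 1 control. The deposited table also sets the knockdown directly against the maturing control, without the shared library. There the members had a median of -0.0093, with 43 lower and 38 higher in the knockdown, against 57% lower among all measured genes. In that comparison 0 members were called in the authors' deposited table, against 11.6% of 9241 tested genes, and 0 reached 1.5-fold, against 20.6% of measured genes. Rpl41 (-0.37), Rpl36 (-0.28) and Rpl7a (-0.25) were lower in the knockdown than in the maturing control, and Rpl10 (0.25), Rpl38 (0.24) and Rpl39 (0.22) were higher, on the log2 scale.

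By role in the ribosome, no group held a called row. Of the 4 stalk proteins, Rplp0, the base of the stalk, stood at 629.9 FPKM in the proliferating control, 633 in the knockdown and 589.6 in the maturing control. Its partner Rplp2 stood at 417 FPKM in the proliferating control, 364 in the knockdown and 391 in the maturing control, and Rpl12, which holds the stalk base, at 174 FPKM in the proliferating control, 144 in the knockdown and 159 in the maturing control. The group had a median of -0.12 in the knockdown, with 3 of 4 lower (2 of 4 after centring on abundant genes), and of -0.12 in the maturing control, with 4 of 4 lower. Rplp1 and Rplp0 had the knockdown ratios nearest to 0, -0.038 and 0.007, and Rplp2 and Rpl12 the lower ones, -0.19 and -0.27.

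Rpl5 and Rpl11 bind the 5S ribosomal RNA and, when free of the ribosome, hold the p53 regulator Mdm2. Rpl5 stood at 137 FPKM in the proliferating control, 132 in the knockdown and 124 in the maturing control, and Rpl11 at 392 FPKM in the proliferating control, 375 in the knockdown and 360.1 in the maturing control. Both were highest in the proliferating control, with knockdown ratios of -0.049 and -0.062 that turned positive after centring on abundant genes (a median of 0.030). In the maturing control they were -0.14 and -0.12.

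Among proteins at the tunnel through which the new chain leaves, 7 of 8 were measured. Rpl4, whose loop reaches the tunnel wall, stood at 461 FPKM in the proliferating control, 436 in the knockdown and 439 in the maturing control. Rpl35 stood at 485 FPKM in the proliferating control, 422 in the knockdown and 430.2 in the maturing control, Rpl23a at 399 FPKM in the proliferating control, 353 in the knockdown and 379 in the maturing control and Rpl31 at 86.8 FPKM in the proliferating control, 71.6 in the knockdown and 83.4 in the maturing control. Rpl19 (0.024) and Rpl39 (0.15) had higher values in the knockdown than in the proliferating control, and Rpl17 a ratio of -0.038. The group's medians were -0.080 in the knockdown, with 5 of 7 lower, and -0.074 in the maturing control, with 7 of 7 lower. After centring on abundant genes the knockdown median was 0.0057, with 3 of 7 lower.

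The 8 proteins of the mRNA channel and the decoding centre had medians of -0.060, with 7 of 8 lower, and -0.11, also with 7 of 8 lower. After centring on abundant genes, 2 of 8 were lower in the knockdown. Rps2 and Rps3, which sit at the mRNA entry, stood at 597 FPKM in the proliferating control, 566 in the knockdown and 614 in the maturing control, and at 188 FPKM in the proliferating control, 183 in the knockdown and 171 in the maturing control. Rps15, whose tail reaches the decoding centre, stood at 532 FPKM in the proliferating control, 483 in the knockdown and 509 in the maturing control, and Rps14, of the platform, at 459 FPKM in the proliferating control, 433 in the knockdown and 419 in the maturing control. Rps28 had the highest knockdown ratio of the 8 (0.046).

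Rps27a is made as a fusion with ubiquitin, while Fau encodes a ubiquitin-like protein joined to a small-subunit protein. Rps27a stood at 193 FPKM in the proliferating control, 195 in the knockdown and 198 in the maturing control. By its symbol Fau is outside the rule, and it stood at 409 FPKM in the proliferating control, 397 in the knockdown and 381 in the maturing control. The ratios of Rps27a and Fau were 0.013 and -0.045 in the knockdown and 0.031 and -0.10 in the maturing control.

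Of 21 Diamond-Blackfan genes with 22 rows, 21 rows were measured and Rpl26 was not. In the knockdown 18 of the 21 rows had a lower value, with a median of -0.16 (13 of 21 after centring on abundant genes). In the maturing control 20 of 21 had one, with a median of -0.14. For all 81 members the medians were -0.12 and -0.13. Rps24 stood at 225 FPKM in the proliferating control, 225 in the knockdown and 211 in the maturing control and Rps10 at 347 FPKM in the proliferating control, 332 in the knockdown and 331 in the maturing control. Rpl35a stood at 258 FPKM in the proliferating control, 222 in the knockdown and 231 in the maturing control, and Rps29 at 247 FPKM in the proliferating control, 218 in the knockdown and 229 in the maturing control. Rps24 was nearly level between the proliferating libraries (-0.00075). Rpl8 stood at 646 FPKM in the proliferating control, 528 in the knockdown and 575 in the maturing control, and its knockdown ratio of -0.29 was the lowest among the genes of this list. None of the rows of this list was called in the authors' deposited table, in which the joint row of Gm9846 and Rps27 was not tested.

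The 3 measured paralogs had lower ratios than the median member in the knockdown. In the maturing control Rps27l (-0.12) lay above the member median of -0.13. Rps27l, a gene that p53 can induce, stood at 121 FPKM in the proliferating control, 98.9 in the knockdown and 111 in the maturing control, next to 288, 261 and 248 FPKM in the joint row of Rps27. Rpl22l1 had a ratio of -0.31 in the knockdown, next to -0.089 for Rpl22, which stood at 50.8 FPKM in the proliferating control, 47.7 in the knockdown and 45.8 in the maturing control. The median of these 3 listed paralogs was -0.31 in the knockdown and -0.19 in the maturing control, and all 3 were lower in both. Rps4y2, the relative of Rps4x, was not on this list. It was slightly higher in the knockdown and lower in the maturing control, at 1.89, 1.97 and 1.30 FPKM in the order proliferating control, knockdown and maturing control.

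The spread of ratios was also set beside that of other gene lists. The range that holds the middle 50% of log2 ratios was 0.15 wide for the members in the knockdown, 0.29 for 76 mitochondrial ribosomal proteins, 0.33 for 171 other genes at 100 FPKM or more in the proliferating control and 0.43 for all measured genes. In the maturing control these widths were 0.085, 0.25, 0.27 and 0.31. Some shorter lists were narrower than the members. In the knockdown the width was 0.13 for 28 initiation factors and 0.13 for 5 rescue and recycling factors, and in the maturing control it was 0.078 for 7 elongation factors. The median of the 171 other abundant genes was close to that of the members, at -0.13 in the knockdown and -0.10 in the maturing control, with 122 and 123 of 171 lower. Of those 171 genes, 22 reached 1.5-fold in the knockdown and 8 of 169 tested were called in the authors' deposited table, at log2 ratios of 1.51 or more in size. Their median model standard error of 0.38 was close to that of the members. These widths are descriptions of 3 libraries, and no test was made of the difference in spread.

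**Figure D4:**
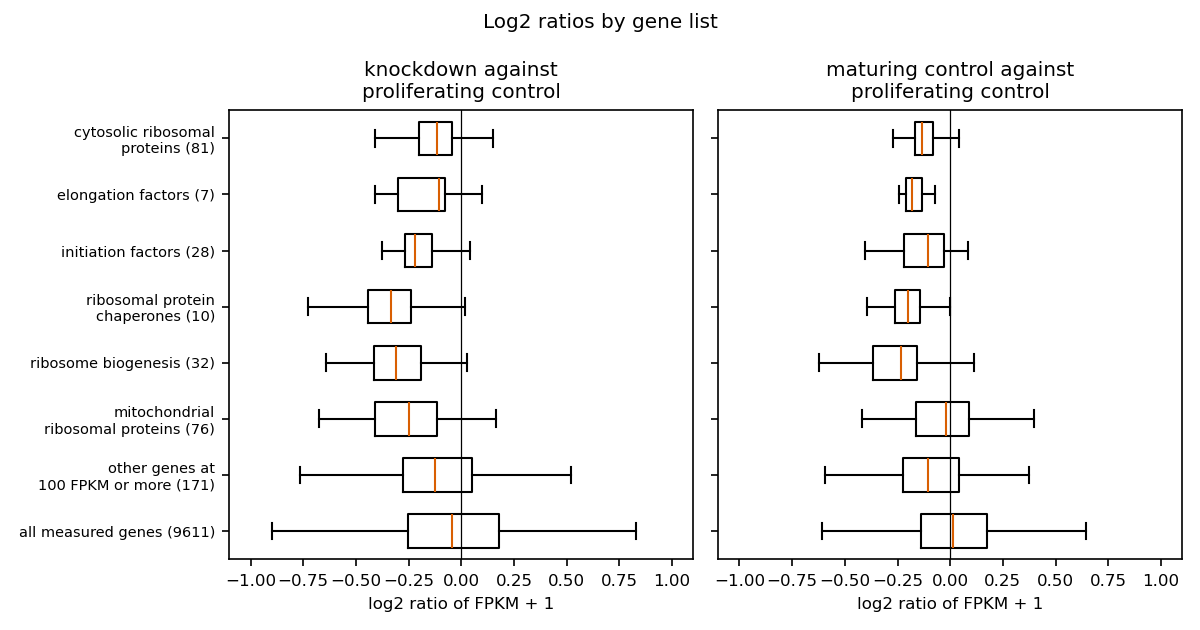
Log2 ratios of FPKM + 1 (horizontal axis) by gene list for the knockdown (left) and the maturing control (right), each against the proliferating control, with the number of measured genes in brackets. Orange lines are medians, boxes hold the middle 50% of genes and whiskers reach the farthest gene within 1.5 box widths; the box of the cytosolic ribosomal proteins is the narrower beside those of the mitochondrial ribosomal proteins, the other abundant genes and all measured genes.

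The mitochondrial ribosomal proteins, which serve the separate ribosome of that organelle, had a median of -0.25 in the knockdown, with 67 of 76 lower, and of -0.018 in the maturing control, with 43 of 76 lower. Under the 4 other scalings 62 to 65 of 76 were lower in the knockdown. Mrpl52, the highest of them, stood at 80.3 FPKM in the proliferating control, 57.1 in the knockdown and 54.5 in the maturing control. Mrps21 was at 50.2 FPKM in the proliferating control, 47.4 in the knockdown and 48.6 in the maturing control, and Mrpl20 at 45.4 FPKM in the proliferating control, 37.4 in the knockdown and 38.1 in the maturing control. Of the 76, 4 were at least 1.5-fold lower in the knockdown, and 0 were called in the authors' deposited table. Their median model standard error of 0.52 was larger than that of the cytosolic members.

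Genes that build ribosomes had lower medians than the ribosomal proteins themselves. Of 32 ribosome biogenesis genes, 29 had a lower value in the knockdown, at a median of -0.31 (28 at -0.22 after centring on abundant genes), and 28 in the maturing control, at -0.24. Fbl, the methyltransferase of box C/D particles, stood at 59.9 FPKM in the proliferating control, 53.5 in the knockdown and 55.2 in the maturing control. Ncl, the nucleolar protein nucleolin, stood at 52.4 FPKM in the proliferating control, 39.3 in the knockdown and 37.9 in the maturing control, and Nop10, a core protein of box H/ACA particles, at 84.1 FPKM in the proliferating control, 61.6 in the knockdown and 66.6 in the maturing control. Of 10 chaperones and loading factors of ribosomal proteins, 9 were lower in each comparison, at medians of -0.33 (-0.25 after centring on abundant genes) and -0.20. Among them Rrs1, which brings the 5S particle to the large subunit, stood at 20.9 FPKM in the proliferating control, 12.3 in the knockdown and 17.2 in the maturing control. Nob1, the nuclease of the last cut in small-subunit ribosomal RNA, stood at 14.8 FPKM in the proliferating control, 12.1 in the knockdown and 12.3 in the maturing control. In the authors' deposited table none of these 42 genes was called in either comparison.

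Translation factors also mostly had lower values. Of 28 initiation factors, 25 were lower in the knockdown at a median of -0.22 (24 at -0.13 after centring on abundant genes) and 24 in the maturing control at -0.11. Eif4a1, the helicase of the cap complex, stood at 147 FPKM in the proliferating control, 124 in the knockdown and 129.9 in the maturing control. Of 7 elongation factors, 6 were lower in the knockdown at a median of -0.11 (5 at -0.022 after centring on abundant genes) and 7 in the maturing control at -0.18. Eef1a1, which carries aminoacyl-tRNA to the ribosome, stood at 1354 FPKM in the proliferating control, 1451 in the knockdown and 1289 in the maturing control, and Eef2, which drives translocation, at 413 FPKM in the proliferating control, 387 in the knockdown and 364 in the maturing control. Eef1a1 was the elongation factor with a higher value in the knockdown (0.10).

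Other genes whose messages carry the TOP motif gave mixed values. Of 10 measured, 7 were lower in the knockdown, at a median of -0.039 that was 0.047 after centring on abundant genes, and 9 were lower in the maturing control, at -0.16. Tpt1, a small translationally controlled protein, stood at 596 FPKM in the proliferating control, 632 in the knockdown and 559.9 in the maturing control. Gnb2l1, the small-subunit scaffold also called Rack1, stood at 405 FPKM in the proliferating control, 405 in the knockdown and 340.2 in the maturing control. Vim, the intermediate filament vimentin, stood at 17.8 FPKM in the proliferating control, 163 in the knockdown and 4.24 in the maturing control. It was called higher in the knockdown and lower in the maturing control in the authors' deposited table, and no other gene of this list was called. Besides Vim, 1 gene of the list reached 1.5-fold in the knockdown, with a lower value. The 11 genes of mTOR signalling to the ribosome had a median of -0.031 in the knockdown, which was 0.055 after centring on abundant genes, and of 0.20 in the maturing control, with 8 of 11 higher. Larp1, which binds the TOP motif, stood at 19.7 FPKM in the proliferating control, 16.6 in the knockdown and 23.5 in the maturing control. Eif4ebp1, an inhibitor of cap-dependent initiation, stood at 19.0 FPKM in the proliferating control, 11.9 in the knockdown and 13.0 in the maturing control.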

How the data were processed

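RNA of 4 samples in 4 groups, 1 per group, is described in the labels, and 3 libraries were used. Cuffdiff, Cufflinks 2.0.2, FastQC 0.10.1 and the mm9 build are named per the submitters' processing notes. Which aligner and annotation were used is not given in the sources used here. A single Cuffdiff-style table was deposited by the authors, with 65535 rows: 23234 genes in each comparison with the proliferating control and 19067, all members included, in the third. Its 2 values per row are taken as the authors' FPKM, the unit Cuffdiff writes. Per the file headers, each row also has the deposited log2 ratio, statistic, p-value and q-value. A deposited q-value of at most 0.05 is a call. The knockdown library was matched to its sample by target and number, since its name in the table is not the full title.

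From these values the log2 ratio of FPKM + 1 was computed for rows at 1 FPKM or more in a library, and counts past 1.5-fold were taken. The model standard error is the size of the deposited log2 ratio divided by the authors' statistic. No test was run. FPKM gives no absolute depth, so no counting interval is given. Copies were found with blastn 2.17.0 between principal coding sequences and pseudogene transcripts of the GENCODE M21 annotation (GRCm38). RefSeq start windows were joined by symbol, taking the first window of a gene. Alternatives were other pseudocounts (0.1 and 5 FPKM), filters, scalings, the mean, and rows left out. The median step was tested on simulated data. Named were genes of the structural lists, the 5 highest and lowest levels and ratios, called genes and up to 4 others per list, by level. The ratios were ranked among members at 5 FPKM or more in a library of the comparison. Pelo, Rpl22, Rpl38 and the members shown for their copies or start windows were named after their values were seen. Some genes that the rule takes are counted but not reported here by name. The members and lists were chosen with earlier results of these data known. The software was Python 3.11.15 with pandas 2.3.3, numpy 2.4.6, scipy 1.17.1 and matplotlib 3.10.9.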

Additional observations from a re-analysis of the deposited data

How the results depend on the processing

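The median knockdown ratio of the members was -0.064 with an equal sum of FPKM and -0.031 when centred on the 4364 genes at 5 FPKM or more in every library, whose own median was -0.086. Over all 12 alternatives it ran from -0.13 to -0.031, and 10 of the 12 stayed within 1.5 times of the reported value. The maturation median ran from -0.15 to -0.12, and all 12 did. The alternative that adds copy rows to their member was chosen after seeing the data. The counts of called members and of members past 1.5-fold were 0 under each of 9 other settings in each comparison. No paired analysis was possible because each group has 1 library. Leaving out a library was not possible for the same reason. With 1 library per group, the spread between cultures is unknown. The members' median model standard error was 0.38 on the log2 scale. A member with that error would need a log2 ratio of about 0.75 in size to reach an unadjusted p of 0.05 in Cuffdiff, so smaller differences could not be resolved.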

Other observations

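Ribosome rescue and recycling factors clear stalled ribosomes and split them for reuse. Of 5 measured, 4 had a lower value in the knockdown, at a median log2 ratio of -0.26, and 4 in the maturing control, at -0.20. Pelo, which opens stalled ribosomes with its partner Hbs1l, stood at 3.37 FPKM in the proliferating control, 4.91 in the knockdown and 3.09 in the maturing control. Hbs1l itself stood at 21.0 FPKM in the proliferating control, 16.3 in the knockdown and 13.7 in the maturing control, so the partners lay on opposite sides of the proliferating control in the knockdown and on the same side in the maturing control. Abce1, which splits the subunits, stood at 28.1 FPKM in the proliferating control, 24.0 in the knockdown and 23.7 in the maturing control. The authors' deposited table called 0 of the 5 in either comparison.

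Rows of microRNA genes held 5.32% of the summed FPKM in the proliferating control, 5.22% in the knockdown and 7.02% in the maturing control. Without them the ribosomal protein rows held 15.6%, 14.8% and 14.5% of the sum. Over 80 measured members with a coding sequence, the number of pseudogene copies and the level in the proliferating control had a Spearman rho of -0.23, and the number of copies and the log2 ratio one of 0.046 in the knockdown and 0.19 in the maturing control. Coding length and the ratio gave 0.12 and 0.023. These are descriptions across genes that share the same libraries.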
